A study of Mus musculus with 6 samples.

Results

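The genes described here are 40 genes of the glutathione, thioredoxin and peroxiredoxin systems, of NRF2 with its inhibitor and marker target genes, and of haem breakdown and ferritin. They were listed by name, with no threshold on their values but with earlier results of these data known, and all 40 were among the 23337 genes of the count table. They are Nfe2l2 and Keap1; Nqo1, Srxn1, Txnrd1 and Hmox1; Gclc, Gclm, Gss and Gsr; Gpx1, Gpx3, Gpx4 and Gpx7; Txn1 and Txnrd2; Prdx1 to Prdx6; Sod1, Sod2 and Cat; Mgst1, Mgst2 and Mgst3; Gsta4, Gstk1, Gstm1, Gstm5, Gsto1, Gstp1, Gstt1, Gstt2 and Gstz1; and Fth1, Ftl1 and Blvrb. The study sequenced polyadenylated RNA of C57BL6 mouse bone marrow granulocyte-monocyte progenitors with ER-HOXA9, a fusion of the estrogen receptor and the homeobox factor HOXA9 that keeps such cells immature while beta-estradiol is present. It asked whether an epigenetic inhibitor given with metabolic inhibitors lifts the block of myeloid differentiation. All 3 groups carried ER-HOXA9 and grew with stem cell factor and 0.5 µM beta-estradiol. They were untreated cells at day 0, cells at day 3 with the solvent DMSO (vehicle), and cells at day 3 with a combination of 3 drugs. The combination held GSK-LSD1 at 200 nM, an inhibitor of the histone demethylase LSD1, with the purine antimetabolite mercaptopurine and the fatty acid synthase inhibitor cerulenin, each at 5 µM. Each group had 2 libraries. The labels do not say whether these were separate cultures, so p-values measure the spread between these libraries, which may be technical. No drug was given alone.

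Glutathione is a small thiol that cells make from glutamate, cysteine and glycine. Glutathione peroxidases and transferases use it to reduce peroxides and to conjugate reactive compounds, while peroxiredoxins reduce peroxides with electrons from thioredoxin. The transcription factor NRF2, encoded by Nfe2l2, is held at a low level by KEAP1 and is stabilised when KEAP1 is modified by electrophiles or oxidants; it then binds antioxidant response elements beside its target genes. In myeloid cells these systems act beside enzymes that make oxidants on purpose, such as myeloperoxidase.

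Antioxidant response elements share the core TGACNNNGC, in which N is any base. It was searched on both strands of the RefSeq promoter windows of GRCm38.p6, which run from 250 bases before to 50 bases after a gene's start, and 34 of the 40 genes had at least 1 window. The core was in 8 of their 44 windows (18.2%), against 12.4% of 32851 windows of all genes. Counted by gene, 8 of the 34 (23.5%) held it in a window, against 14% of 27025 genes. Its first letters are shared with the AP-1 motif TGACTCA, which the core of Prdx1 holds whole. The core was held by Prdx1, Sod1 and Mgst1, which rose with the drugs against vehicle, and by Srxn1, Txnrd1 and Gclm, which fell. Nfe2l2, which was tested and not called, held it as well. How often it stands in all called and all uncalled genes was not counted. Hmox1, Gclc, Gsr, Prdx6, Gsta4 and Gstt2 had no window, and sequence outside the windows was not searched. Gstm5, which was not tested, held one too. A match is a description of letters and not a binding site. The 250 bases before the start are shown for 2 genes that rose and 2 that fell, to set side by side promoters that share the core and differ in response. They read 5′ to 3′ along the gene's strand, which is the plus strand in each, and capitals mark the core, here on the opposite strand and so shown as its reverse complement.
Mgst1, chr6:138140277-138140526, core 56 bases before the start: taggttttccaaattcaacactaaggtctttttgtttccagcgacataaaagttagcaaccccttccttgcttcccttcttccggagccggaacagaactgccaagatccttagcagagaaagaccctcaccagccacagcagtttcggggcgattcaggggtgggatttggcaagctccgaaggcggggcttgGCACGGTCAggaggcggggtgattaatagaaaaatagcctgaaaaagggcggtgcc
Prdx1, chr4:116685349-116685598, core 133 bases before the start: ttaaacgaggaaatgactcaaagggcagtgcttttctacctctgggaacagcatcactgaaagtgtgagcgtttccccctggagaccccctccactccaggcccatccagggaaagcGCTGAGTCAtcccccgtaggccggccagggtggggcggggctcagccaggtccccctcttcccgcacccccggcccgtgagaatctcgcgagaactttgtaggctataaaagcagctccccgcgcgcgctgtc
Gclm, chr3:122245307-122245556, core 134 bases before the start: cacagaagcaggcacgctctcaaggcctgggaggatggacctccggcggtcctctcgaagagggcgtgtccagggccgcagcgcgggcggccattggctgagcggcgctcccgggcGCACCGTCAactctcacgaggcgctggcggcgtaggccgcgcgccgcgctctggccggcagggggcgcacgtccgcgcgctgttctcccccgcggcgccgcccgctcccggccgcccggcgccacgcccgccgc
Txnrd1, chr10:82858956-82859205, core 92 bases before the start: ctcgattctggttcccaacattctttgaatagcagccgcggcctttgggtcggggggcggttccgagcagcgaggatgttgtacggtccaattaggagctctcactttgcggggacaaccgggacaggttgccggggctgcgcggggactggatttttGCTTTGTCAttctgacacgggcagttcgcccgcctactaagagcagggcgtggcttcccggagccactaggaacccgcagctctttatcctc
The Txnrd1 stretch lies before a start inside the gene, which begins at 82833951 in the count table. Srxn1 held the core TGACCTAGC on the opposite strand, 28 bases after its start. With an A required after the core, 1 of the 44 windows matched (2.27%), that of Txnrd1, against 3.04% of all windows.

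Total counts per library ranged from 11305666 to 16948697, of which the 40 genes took 0.298% to 0.386%. Levels are given in CPM, counts scaled to the library size after TMM scaling. All 8 markers of granulocyte-monocyte progenitors were expressed, with summed levels of 7521 CPM and above in every library, and Mpo and Cd34 were the highest. Of 12 erythroid markers 7 were at 0 in all libraries, and the rest summed to 0.801 to 2.09 CPM. Mature neutrophil markers summed to 8.31 to 20.1 CPM, and T cell markers to 0.452 to 1.16 CPM. The replicates of untreated cells and of vehicle cells differed in a way that followed gene length. For genes under 1 kb the median log2 difference of replicate 1 minus replicate 2 was 0.29 in untreated cells, -0.22 with vehicle and -0.06 with the drugs. For genes over 4 kb it was -0.10, 0.10 and 0.02. The antioxidant genes are short, with a median length of 1332 bp among those tested against 2830 bp for all tested genes, so this touches many of them. Prdx4, Txn1, Gpx4, Prdx2 and Sod1 were all higher in replicate 1 than in replicate 2 of untreated cells and lower in replicate 1 of vehicle cells.

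**Figure D1:**
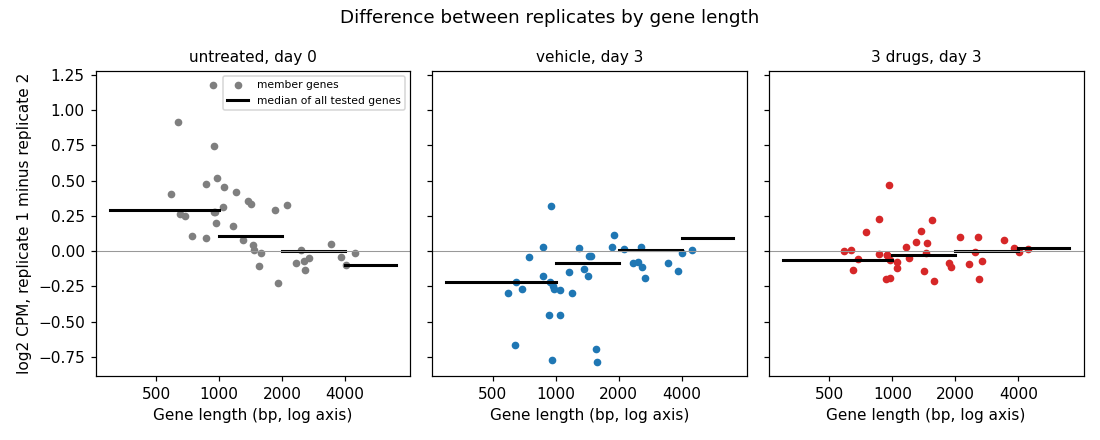
Log2 difference in CPM between replicate 1 and replicate 2 (vertical axis) against gene length in bp (log axis) in each of the 3 groups; points are the tested antioxidant genes and black bars the medians of all tested genes in 4 ranges of length. Below 1 kb the median of all genes is 0.29 in untreated cells and -0.22 with vehicle, and the points lie around these bars.

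Against vehicle, the drugs raised 7 of the 36 antioxidant genes that had enough reads to test and lowered 7. Mgst1, Blvrb, Prdx1, Gsr, Prdx2, Prdx5 and Sod1 rose, and Nqo1, Fth1, Gclm, Srxn1, Txnrd1, Prdx3 and Prdx6 fell. Genes were called at an adjusted p under 0.05 in the edgeR quasi-likelihood test with Benjamini-Hochberg adjustment over 11283 genes. The count of rises is 19.4% of the tested members beside 18.1% of all tested genes, and the count of falls is 19.4% beside 13.8%. The median log2 change was 0.09 for the antioxidant genes and 0.000753 for all tested genes. In 27 of the 36 (75%) the libraries of the groups did not overlap, against 68.8% of all tested genes. The 7 rises became 4 when vehicle replicate 1 or drug replicate 2 was left out, and 11 when either untreated replicate, which is not in this comparison but shares the fit, was left out. The 7 falls became 4 without vehicle replicate 2, without drug replicate 1 or without drug replicate 2, each in turn. The calls of Mgst1, Prdx1, Gsr, Blvrb, Fth1, Gclm and Txnrd1 held in all 15 other analyses of scaling, test, filter, block, length and left-out libraries. In bulk RNA, more cells of a type and more RNA per cell cannot be told apart.

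**Figure D2:**
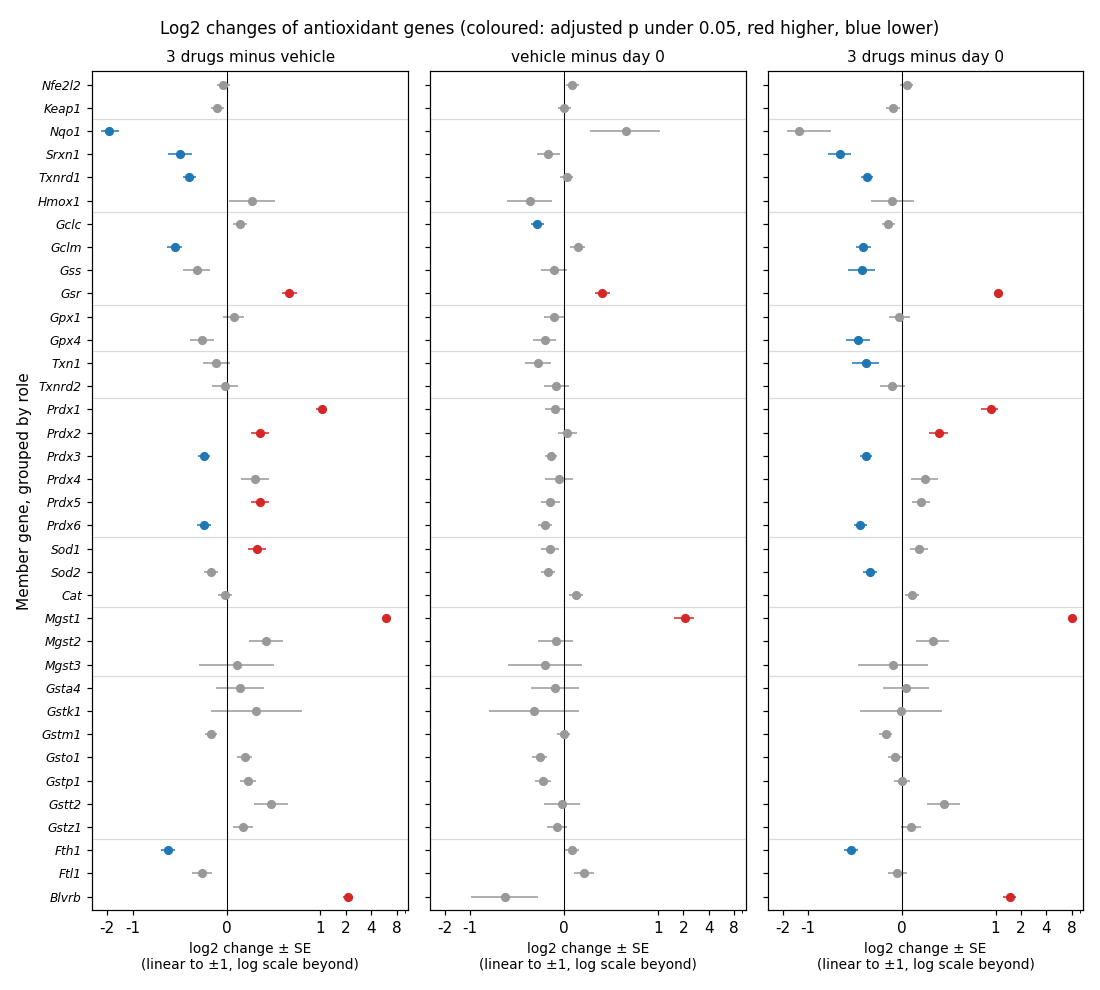
Log2 change ± SE of each tested antioxidant gene in the 3 comparisons; the axis is linear between -1 and 1 and logarithmic beyond. Red points rose and blue points fell at an edgeR adjusted p under 0.05; with the drugs against vehicle 7 are red and 7 blue, Mgst1 stands at 6.04, and the comparison of vehicle with day 0 holds 3 coloured points.

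The RNA of NRF2 itself did not pass the test against vehicle. Nfe2l2 was at 64.5 and 64.2 CPM in untreated cells, 66.4 and 70.2 CPM with vehicle and 66.6 and 66.9 CPM with the drugs (replicates 1 and 2, in this order throughout). Drug and vehicle libraries overlapped, and the log2 change was -0.03 ± 0.07 (SE; edgeR adjusted p = 0.765). Keap1, its inhibitor and adaptor for degradation, was at 53.7 and 54.2 CPM at day 0, 54.2 and 53.9 CPM with vehicle and 50.8 and 50.3 CPM with the drugs. The drug libraries were the lowest, and the change of -0.10 ± 0.07 did not pass (edgeR adjusted p = 0.337). The ratio of Nfe2l2 to Keap1, per length, was 2.16 ± 0.0215 (SD, n = 2) in untreated cells, 2.29 ± 0.0996 with vehicle and 2.39 ± 0.0221 with the drugs.

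Of the 4 genes listed here as NRF2 marker targets, 3 fell with the drugs against vehicle and none rose. Of these falls only the call of Txnrd1 held in all 15 alternatives. Genes listed by other roles moved both ways, such as Prdx1 and Gsr, which rose, and Gclm, which fell. Over all tested genes 13.8% fell and 18.1% rose, and of 14 further NRF2 targets tested 3 rose and 4 fell. Txnrd1, the cytosolic thioredoxin reductase, was at 149 and 159 CPM at day 0 and 156 and 157 CPM with vehicle, and at 119 and 119 CPM with the drugs. Its drug libraries lay below the other 4, and the log2 change against vehicle was -0.40 ± 0.07 (edgeR adjusted p = 0.000754). Srxn1, sulfiredoxin, which restores over-oxidised peroxiredoxins, was at 16.9 and 18.5 CPM, 15.1 and 16.3 CPM, and 10.3 and 11.9 CPM in the same order of groups. The groups did not overlap, and the fall was 0.49 ± 0.13 on the log2 scale, written as a change of -0.49 (edgeR adjusted p = 0.0106). This call was lost without drug replicate 1 (log2 change -0.40, edgeR adjusted p = 0.115) and without vehicle replicate 2 (edgeR adjusted p = 0.0519), and with DESeq2 (DESeq2 adjusted p = 0.0543), with adjusted p over all alternatives from 0.00126 to 0.115. Nqo1, the quinone reductase by which NRF2 activity is often read, was near the limit of detection, with 14 and 11 counts at day 0, 13 and 21 counts with vehicle and 5 and 5 counts with the drugs. These counts correspond to 0.838 and 0.914 CPM, 1.03 and 1.76 CPM, and 0.401 and 0.323 CPM. The drug libraries were the lowest, with a log2 change of -1.92 ± 0.47 (edgeR adjusted p = 0.00735). Without vehicle replicate 2, the highest library, the change was -1.51 and the edgeR adjusted p 0.0927, without drug replicate 2 the adjusted p was 0.0747, and with DESeq2 it was 0.0668, over a range of 0.00194 to 0.0927. Hmox1, the inducible haem oxygenase, was at 5.03 and 5.07 CPM, 2.85 and 5.02 CPM, and 4.32 and 5.03 CPM. Vehicle replicate 1 alone was low, the groups overlapped, and the change of 0.27 ± 0.24 did not pass (edgeR adjusted p = 0.438).

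Among the genes of glutathione synthesis and recycling, Gsr rose and Gclm fell. Gsr, glutathione reductase, which regenerates glutathione from its oxidised form with NADPH, was at 168 and 174 CPM at day 0, 212 and 242 CPM with vehicle and 353 and 371 CPM with the drugs. The 3 groups did not overlap, and the drugs raised it by 0.67 ± 0.08 on the log2 scale, or 1.59-fold (edgeR adjusted p = 3.36e-05). Gclm, the modifier subunit of glutamate-cysteine ligase, the first and limiting enzyme of synthesis, was at 39.1 and 38.9 CPM, 42.6 and 43.7 CPM, and 30.0 and 28.9 CPM. Both drug libraries were below all others, with a log2 change of -0.55 ± 0.08 (edgeR adjusted p = 0.000208). Gclc, the catalytic subunit of the same enzyme, was at 83.5 and 80.8 CPM, 65.5 and 69.6 CPM, and 76.7 and 72.5 CPM. Its drug libraries lay between those of vehicle and day 0, and the change against vehicle was 0.14 ± 0.07 (edgeR adjusted p = 0.152). The length-scaled ratio of the modifier to the catalytic subunit was thus 1.49 ± 0.0387 (SD, n = 2) with vehicle and 0.919 ± 0.0118 with the drugs, and 1.11 ± 0.0226 at day 0. Gss, glutathione synthetase, which completes the molecule, was at 12.7 and 10.4 CPM, 10.9 and 10.7 CPM, and 8.41 and 8.91 CPM. The drug libraries were the lowest, and the change of -0.32 ± 0.15 did not pass (edgeR adjusted p = 0.119).

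**Figure D3:**
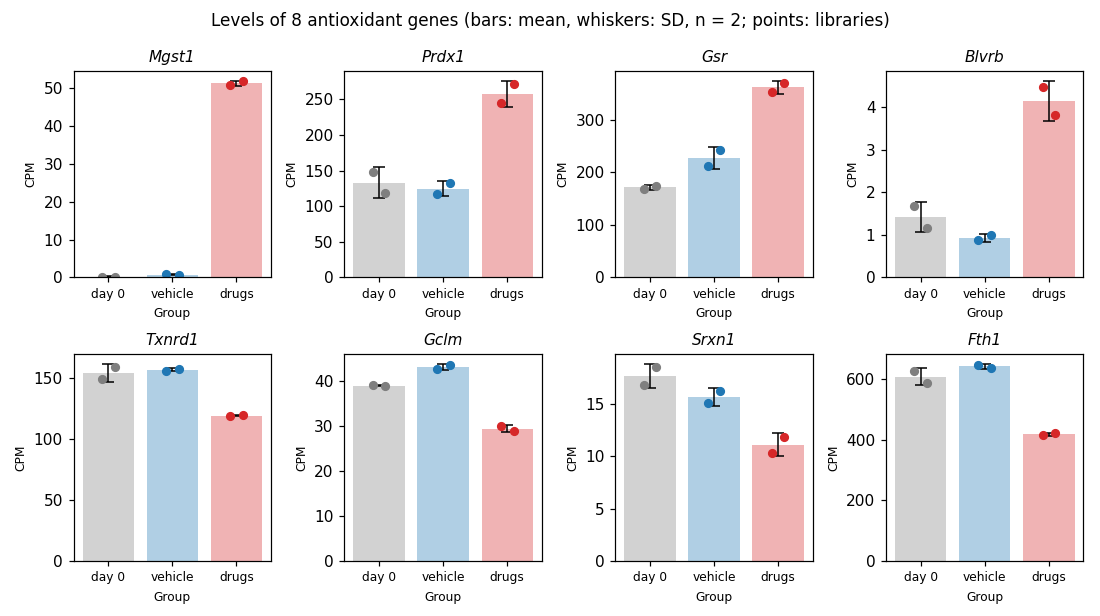
Levels in CPM of 8 antioxidant genes in the 3 groups; bars are means, whiskers the SD of 2 libraries and points the libraries. In the upper row (Mgst1, Prdx1, Gsr and Blvrb) the drug libraries are the highest, and in the lower row (Txnrd1, Gclm, Srxn1 and Fth1) they are the lowest.

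The tested glutathione peroxidases and the thioredoxin pair were not called against vehicle, though Gpx4 was in some alternatives. Gpx1, the cytosolic selenium enzyme that reduces hydrogen peroxide, was at 370 and 298 CPM at day 0, 282 and 341 CPM with vehicle and 315 and 342 CPM with the drugs. The 3 groups overlapped (log2 change 0.08 ± 0.11, edgeR adjusted p = 0.635). Gpx4, which reduces lipid peroxides in membranes, was at 85.1 and 63.6 CPM, 58.2 and 71.6 CPM, and 53.1 and 55.0 CPM. The drug libraries were the lowest, with a change of -0.26 ± 0.13 (edgeR adjusted p = 0.136). It was called lower in 7 of 15 alternatives, among them those that left out an untreated library, over a range of 0.00406 to 0.559 in adjusted p. A processed copy of Gpx4 shares 61.7% of its 50-base stretches, so its count is uncertain. Gpx3, the secreted enzyme, and Gpx7, of the endoplasmic reticulum, had 0 counts in all 6 libraries, which allows up to 0.18 to 0.251 CPM (3 counts in a library, for counting error only). Txn1, thioredoxin, was at 132 and 96.8 CPM, 80.1 and 110 CPM, and 85.6 and 90.4 CPM, with overlapping groups and a change of -0.11 ± 0.15 (edgeR adjusted p = 0.611). Txnrd2, the mitochondrial reductase, ranged from 10.7 to 13.0 CPM over all libraries and changed by -0.02 ± 0.14 (edgeR adjusted p = 0.944). Of the 5 selenocysteine enzymes among these genes (Gpx1, Gpx3, Gpx4, Txnrd1 and Txnrd2), 4 were tested, 1 fell against vehicle and 0 rose.

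The 6 peroxiredoxins, which reduce peroxides at a reactive cysteine, split between 3 rises, 2 falls and 1 gene not called. Prdx1, the abundant cytosolic form, was at 148 and 118 CPM at day 0, 117 and 132 CPM with vehicle and 245 and 271 CPM with the drugs. Both drug libraries exceeded the other 4, with a log2 change of 1.05 ± 0.10, or 2.08-fold (edgeR adjusted p = 6.32e-06). Prdx2, the other cytosolic form, was at 55.2 and 45.5 CPM, 47.9 and 55.8 CPM, and 65.7 and 67.1 CPM, a rise of 0.36 ± 0.10 (edgeR adjusted p = 0.0153). Prdx5, found in mitochondria, peroxisomes and cytosol, was at 81.8 and 68.9 CPM, 62.0 and 74.7 CPM, and 85.6 and 89.1 CPM, a rise of 0.36 ± 0.10 (edgeR adjusted p = 0.015). The drug libraries of both lay above all others. Prdx3, the mitochondrial form, was at 95.6 and 92.8 CPM, 84.7 and 86.7 CPM, and 72.1 and 72.8 CPM, a change of -0.24 ± 0.07 (edgeR adjusted p = 0.0145). Prdx6, which uses glutathione in place of thioredoxin, was at 112 and 119 CPM, 97.2 and 103 CPM, and 82.3 and 87.5 CPM, a change of -0.24 ± 0.07 (edgeR adjusted p = 0.0225). For both, vehicle lay between day 0 and the drugs. Prdx4, the form of the endoplasmic reticulum, was at 29.1 and 20.3 CPM, 21.8 and 26.3 CPM, and 29.0 and 30.3 CPM, and its change of 0.30 ± 0.15 did not pass (edgeR adjusted p = 0.138).

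The calls of the smaller peroxiredoxin changes were lost when single libraries were left out. Without vehicle replicate 1 the edgeR adjusted p was 0.126 for Prdx2 and 0.138 for Prdx5, and without drug replicate 2 it was 0.102 and 0.112, over ranges of 9.64e-05 to 0.126 for Prdx2 and 3.1e-05 to 0.138 for Prdx5. Leaving out drug replicate 1 gave 0.0743 and 0.0617. For Prdx3 and Prdx6 it gave 0.139 and 0.231, leaving out drug replicate 2 gave 0.109 and 0.0741, and Prdx6 was at 0.0932 without vehicle replicate 2, over ranges of 0.00181 to 0.139 and 0.00261 to 0.231. Scaling by library totals ended the calls of Prdx2 (edgeR adjusted p = 0.0858) and Prdx5 (0.0847), and DESeq2 those of Prdx3 (DESeq2 adjusted p = 0.0668) and Prdx6 (0.0697). Prdx4 passed in 6 of 15 alternatives, among them removal of a trend on gene length from each library (log2 change 0.32, edgeR adjusted p = 0.0158). Set per length, Prdx1 stood at 14.4 ± 0.469 (SD, n = 2) times its repair enzyme Srxn1 with vehicle and at 42.4 ± 1.17 times with the drugs.

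Among the enzymes of superoxide and hydrogen peroxide, Sod1 rose. Sod1, the copper and zinc superoxide dismutase of the cytosol, was at 107 and 89.2 CPM at day 0, 82.1 and 95.5 CPM with vehicle and 106 and 117 CPM with the drugs. The drug libraries exceeded vehicle and overlapped day 0, and the log2 change against vehicle was 0.33 ± 0.10 (edgeR adjusted p = 0.0214). The call was lost without vehicle replicate 1 (edgeR adjusted p = 0.165), without drug replicate 2 (0.194), with library totals as scaling (0.105) and with a replicate block (0.0507), over a range of 4.48e-05 to 0.194. Sod2, the manganese enzyme of mitochondria, was at 77.1 and 79.5 CPM, 66.0 and 73.0 CPM, and 62.5 and 61.4 CPM, a change of -0.17 ± 0.07 that did not pass (edgeR adjusted p = 0.112). Cat, catalase of peroxisomes, ranged from 51.0 to 58.2 CPM over all libraries, with a change of -0.02 ± 0.08 (edgeR adjusted p = 0.873).

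Mgst1 showed the largest change of the tested antioxidant genes, from near 0 to the level of the common ones. Mgst1, a membrane-bound glutathione transferase and peroxidase, had 4 and 1 counts at day 0, 11 and 8 counts with vehicle and 635 and 803 counts with the drugs. These are 0.239 and 0.0831 CPM, 0.87 and 0.669 CPM, and 50.9 and 51.8 CPM. The groups did not overlap, and the drugs raised it by 6.04 ± 0.18 on the log2 scale, or 65.8-fold (edgeR adjusted p = 6.89e-11). Over the 15 alternatives the log2 change ran from 5.86 to 6.24. No 50-base stretch of Mgst1 was shared with another gene. Mgst2, a related membrane enzyme that can make leukotriene C4, was at 6.88 and 5.15 CPM, 5.14 and 6.35 CPM, and 7.69 and 7.68 CPM, a change of 0.42 ± 0.18 (edgeR adjusted p = 0.101). Mgst3 ranged from 0.914 to 1.86 CPM over all libraries, with overlapping groups (edgeR adjusted p = 0.868). Neither passed the test.

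None of the 7 tested soluble glutathione transferases, which join glutathione to reactive compounds, was called in any of the 3 comparisons by edgeR with the settings given above, or by DESeq2. Of all tested genes edgeR called 18.1% higher and 13.8% lower for the drugs against vehicle. The shares were 3.75% and 3.99% for vehicle against day 0, and 22.7% and 21.2% for the drugs against day 0. For the drugs against vehicle 3 had an edgeR unadjusted p under 0.05 upward and 1 downward, for vehicle against day 0 it was 0 and 2, and for the drugs against day 0 it was 1 and 1. Gstm1, of the mu class, was at 172 and 163 CPM at day 0, 169 and 166 CPM with vehicle and 152 and 146 CPM with the drugs, the lowest libraries (log2 change -0.17 ± 0.07, edgeR adjusted p = 0.0836). Gsto1, of the omega class, was at 106 and 94.1 CPM, 79.5 and 88.2 CPM, and 96.8 and 95.0 CPM (0.19 ± 0.08, edgeR adjusted p = 0.0847). Gstp1, of the pi class, was at 44.0 and 40.8 CPM, 35.7 and 36.9 CPM, and 44.6 and 40.6 CPM (0.23 ± 0.09, edgeR adjusted p = 0.0601). In both Gsto1 and Gstp1 the vehicle libraries were the lowest. Gstt2, of the theta class, was at 5.68 and 4.41 CPM, 4.82 and 5.27 CPM, and 7.37 and 6.65 CPM, with drug libraries the highest (0.47 ± 0.18, edgeR adjusted p = 0.0663). Gstz1, which also degrades tyrosine as maleylacetoacetate isomerase, was at 38.7 and 30.8 CPM, 33.4 and 33.0 CPM, and 38.9 and 36.2 CPM (edgeR adjusted p = 0.238). Under other settings of edgeR, calls were made for the drugs against vehicle in 6 of 15 alternatives for Gstt2, 4 for Gsto1, 4 for Gstm1 and 3 for Gstp1, all in the directions given. For vehicle against day 0, Gsto1 was called lower in 3 alternatives and Gstp1 in 1. For the drugs against day 0, Gstt2 was called higher in 4 and Gstm1 lower in 2. Gsta4 ranged from 3.72 to 6.57 CPM and Gstk1 from 0.499 to 1.32 CPM over all libraries, with overlapping groups. Gstm5 had 16 and 4, 5 and 1, and 5 and 6 counts, Gstt1 had 3 and 1, 3 and 1, and 1 and 2 counts, and neither was tested. Gstp1 shares 62.3% of its 50-base stretches with Gstp2 and a pseudogene, and Gstm1 shares 23.1% with other mu class sequences, so the split of reads within these families is uncertain.

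Of the genes that handle haem and the iron it releases, ferritin heavy chain fell and biliverdin reductase B rose. Fth1, which oxidises iron for storage in ferritin, was at 627 and 588 CPM at day 0, 648 and 636 CPM with vehicle and 415 and 421 CPM with the drugs. Both drug libraries were below the other 4, with a log2 change of -0.62 ± 0.08 (edgeR adjusted p = 4.11e-05). Ftl1, the light chain, was at 644 and 561 CPM, 639 and 757 CPM, and 544 and 620 CPM, a change of -0.26 ± 0.10 that did not pass (edgeR adjusted p = 0.0721). It was called lower in 7 of 15 alternatives, over a range of 0.002 to 0.463 in adjusted p. Of its 50-base stretches 78.9% are shared with copies elsewhere, so its count is uncertain. The length-scaled ratio of heavy to light chain was 1.04 ± 0.138 (SD, n = 2) with vehicle and 0.807 ± 0.066 with the drugs. Blvrb, which reduces biliverdin and flavins, had 28 and 14 counts at day 0, 11 and 12 counts with vehicle and 56 and 59 counts with the drugs. This is 1.68 and 1.16 CPM, 0.87 and 1.003 CPM, and 4.49 and 3.81 CPM. The drug libraries were the highest, and the rise was 2.13 ± 0.29 on the log2 scale, or 4.38-fold (edgeR adjusted p = 0.000123). Blvrb is also abundant in red cells. The 12 erythroid markers summed to 0.801 and 1.03 CPM with the drugs and 1.42 and 1.59 CPM with vehicle. Of these markers 10 had fewer than 10 counts in every library and none had enough reads to test, so the sums lie near the floor. A part of red cells in the change of Blvrb was not tested.

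Markers of the progenitors and of other cell types moved in the same libraries. Those of granulocyte-monocyte progenitors summed to 7521 and 7838 CPM at day 0 and 8435 and 8660 CPM with vehicle. With the drugs they summed to 10460 and 11020 CPM. Against vehicle, 3 of these 8 markers were called higher and 2 lower, beside 18.1% and 13.8% of all tested genes. The 10 macrophage markers summed to 33.6 and 29.8 CPM at day 0, 25.3 and 20.9 CPM with vehicle and 78.6 and 77.6 CPM with the drugs. Both that could be tested, Adgre1 (log2 change 1.81) and Cd68 (1.59), rose, while C1qa, C1qc, Marco, Cd5l and Spic were at 0 in all libraries. The 9 mast cell and basophil markers summed to 1090 and 903 CPM, 496 and 480 CPM, and 1212 and 1126 CPM, nearly all of it Cpa3. With the drugs against vehicle, 1 of the 3 tested was called higher, 1 was called lower and 1 was not called. The 8 B cell markers summed to 93.8 and 101 CPM, 109 and 100 CPM, and 55.4 and 53.8 CPM. Against vehicle, 3 of the 4 tested were called lower and 1 higher. The 9 mature neutrophil markers summed to 10.8 and 8.31 CPM, 8.38 and 8.70 CPM, and 18.2 and 20.1 CPM. Of the 4 tested, Mmp9 (2 and 1 counts with vehicle, 70 and 74 counts with the drugs) and Lcn2 (log2 change 1.19, edgeR adjusted p = 0.000803) rose, while Camp and Retnlg were at 0 in all libraries. The other 2 tested neutrophil markers were not called against vehicle, and the median log2 change of the 4 was 0.49. The 7 eosinophil markers summed to 185 and 163 CPM, 143 and 158 CPM, and 116 and 118 CPM. Of the 3 tested, Prg2 fell (log2 change -1.97, edgeR adjusted p = 6.93e-07), Il5ra rose (0.92, 0.0028) and 1 was not called. The 7 megakaryocyte markers summed to 44.5 and 33.4 CPM, 16.1 and 21.3 CPM, and 18.3 and 14.0 CPM, and Gp9 fell (-2.58, edgeR adjusted p = 7.95e-05). With the drugs against vehicle, 1 of the 3 tested megakaryocyte markers was called lower and 2 were not called. The part of these cell types in the changes of the antioxidant genes was not tested.

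**Figure D4:**
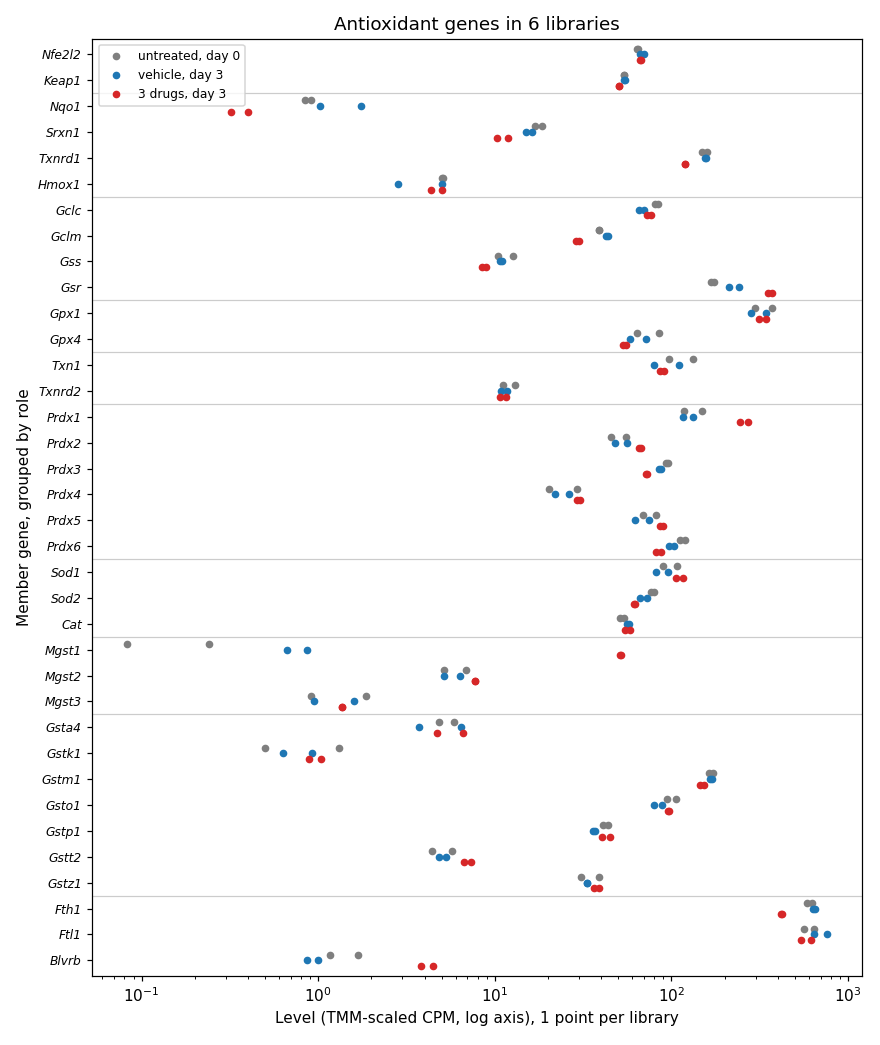
Levels in CPM (log axis) of the tested antioxidant genes, 1 point per library, grouped by role. Grey is untreated, blue vehicle and red the 3 drugs; the red points of Mgst1, near 51 CPM, are separate from the other groups, which lie under 1 CPM.

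Over 3 days with vehicle, few antioxidant genes changed. Gsr and Mgst1 rose and Gclc fell, which makes 2 rises among 36 tested genes (5.56%) beside 3.75% of all tested genes and 1 fall (2.78%) beside 3.99%. The median log2 change was -0.10 for the antioxidant genes and -0.02 for all genes. For genes under 1 kb, whatever their function, the median was -0.22. The libraries of the groups were apart in 16 of the 36 (44.4%), against 50.8% of all genes. The 1 antioxidant fall became 4 without untreated replicate 2 and 2 without vehicle replicate 2. Scaling by library totals in place of the trimmed mean moved the median of all genes from -0.02 to 0.10.

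Gsr rose from 168 and 174 CPM to 212 and 242 CPM, a log2 change of 0.41 ± 0.08 (edgeR adjusted p = 0.00872). It passed in all 15 alternatives, with adjusted p from 1.07e-05 to 0.0481. Mgst1 went from 4 and 1 counts to 11 and 8 counts, a log2 change of 2.09 ± 0.55 (edgeR adjusted p = 0.0353). The call was lost with a replicate block (edgeR adjusted p = 0.0698), with DESeq2 (0.0733), and without untreated replicate 1 (0.0805), untreated replicate 2 (0.0783), vehicle replicate 1 (0.195), drug replicate 1 (0.0602) or drug replicate 2 (0.0615), over a range of 0.0121 to 0.195. Gclc fell from 83.5 and 80.8 CPM to 65.5 and 69.6 CPM, a change of -0.28 ± 0.07 (edgeR adjusted p = 0.0303). It too was lost with a replicate block (edgeR adjusted p = 0.0818) and with library totals (log2 change -0.16, 0.211), without untreated replicate 1 (0.136), vehicle replicate 1 (0.195), drug replicate 1 (0.0818) or drug replicate 2 (0.0734), with DESeq2 (0.149) and with only the compared groups (0.0942), over a range of 0.00146 to 0.211. The drugs against vehicle moved Gclc by 0.14, in the other direction, without passing the test. With the trend on gene length taken out, 6 genes were called higher in place of 2, among them Ftl1 (log2 change 0.38, edgeR adjusted p = 0.000313), Fth1 (0.26) and Prdx2 (0.22).

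Against day 0, the drug-treated cells had 5 antioxidant genes higher and 10 lower. This comparison shares its drug libraries with the first comparison and its day 0 libraries with the second. The 5 rises (Mgst1, Blvrb, Gsr, Prdx1 and Prdx2) are 13.9% of 36 beside 22.7% of all tested genes, and the 10 falls are 27.8% beside 21.2%. The falls were Srxn1, Gpx4, Prdx6, Gss, Gclm, Txn1, Prdx3, Txnrd1, Sod2 and Fth1. The median log2 change was -0.06 for the antioxidant genes, -0.01 for all tested genes and -0.21 for all genes under 1 kb. Without untreated replicate 1, the rises were 10 in place of 5. The groups were apart in 24 of the 36 (66.7%), against 73.2% of all genes.

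Values for the same gene in both comparisons can be set side by side. Gsr changed by 1.08 ± 0.08 on the log2 scale against day 0 and by 0.67 against vehicle. Mgst1 changed by 8.13 ± 0.22 against day 0, a value that depends on the prior count because day 0 held 5 reads, and by 6.04 against vehicle. Prdx1 changed by 0.95 ± 0.10 and 1.05, and Blvrb by 1.495 ± 0.26 and 2.13. Srxn1 changed by -0.66 ± 0.12 against day 0 (edgeR adjusted p = 0.000946) and by -0.49 against vehicle. Both values are below 0, as were those of Prdx6 (-0.44 and -0.24), Prdx3 (-0.38 and -0.24), Gclm (-0.41 and -0.55), Txnrd1 (-0.37 and -0.40) and Fth1 (-0.54 and -0.62). In these 6 genes the call against day 0 held in all 15 alternatives. Sod2, Gss, Gpx4 and Txn1 were called lower against day 0 and not against vehicle. Sod2 changed by -0.34 ± 0.07 against day 0 (edgeR adjusted p = 0.00269) and by -0.17 against vehicle. Whether the changes of these 4 differed between comparisons was not tested. The Gpx4 call (log2 change -0.47, edgeR adjusted p = 0.00879) was lost without untreated replicate 1 (0.109), over a range of 4.09e-07 to 0.109. Leaving out the same library ended the calls of Txn1 (log2 change -0.39, edgeR adjusted p = 0.0432), which was at 0.434 without it and 0.0839 with a replicate block, and of Gss (log2 change -0.43, 0.0264), at 0.239 without it. Their ranges were 1.02e-05 to 0.434 and 0.0064 to 0.239. Without drug replicate 1 the edgeR adjusted p was 0.0623 for Gpx4, 0.183 for Txn1 and 0.149 for Gss, and without drug replicate 2 it was 0.0982 for Txn1, 0.0891 for Gss and 0.0515 for Prdx2. Scaling by library totals also ended the calls of Gpx4 (edgeR adjusted p = 0.0883), Gss (0.129) and Txn1 (0.219), DESeq2 those of Gss (DESeq2 adjusted p = 0.163) and Txn1 (0.284), and removal of the length trend that of Txn1 (edgeR adjusted p = 0.0599). Nfe2l2, Keap1, Hmox1, Gpx1, Cat and the tested soluble transferases were among the genes called in none of the 3 comparisons.

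Levels of different genes were compared per length, as CPM per kb of the deposited gene length (RPKM). With vehicle the order was led by Fth1 at 741 RPKM ± 9.70 (SD, n = 2) and Ftl1 at 719 ± 86.2, whose libraries overlapped, then Gpx1 at 297 ± 40.1, Sod1 at 137 ± 14.7 and Gstm1 at 129 ± 1.36. Sod1 and Gstm1 were not separated beyond their spread. With the drugs Ftl1 led at 600 ± 55.2 RPKM and Fth1 followed at 482 ± 4.94 RPKM, with no overlap between them. Prdx1 stood at 182 ± 12.9 RPKM with the drugs against 87.8 ± 7.62 RPKM with vehicle, and stood at place 8 with vehicle and place 4 with the drugs. Its libraries overlapped those of its neighbours Txn1 and Gsr with vehicle and of Sod1 with the drugs. Mgst1 went from place 36 of 40, at 0.816 ± 0.151 RPKM, to place 13, at 54.5 ± 0.721 RPKM. Of the 39 pairs of neighbours in the order, 19 overlapped with vehicle and 9 with the drugs. Over all genes, too, replicates were closer with the drugs (chi-square per degree of freedom 1.89) than with vehicle (5.99). The part of this in the fewer overlaps was not tested. Together the 40 genes summed to 3259 to 3646 CPM in the 6 libraries. Ferritin made up 38.8% and 38.2% of that sum with vehicle, 28.5% and 29.6% with the drugs, and 35.2% in both day 0 libraries.

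**Figure D5:**
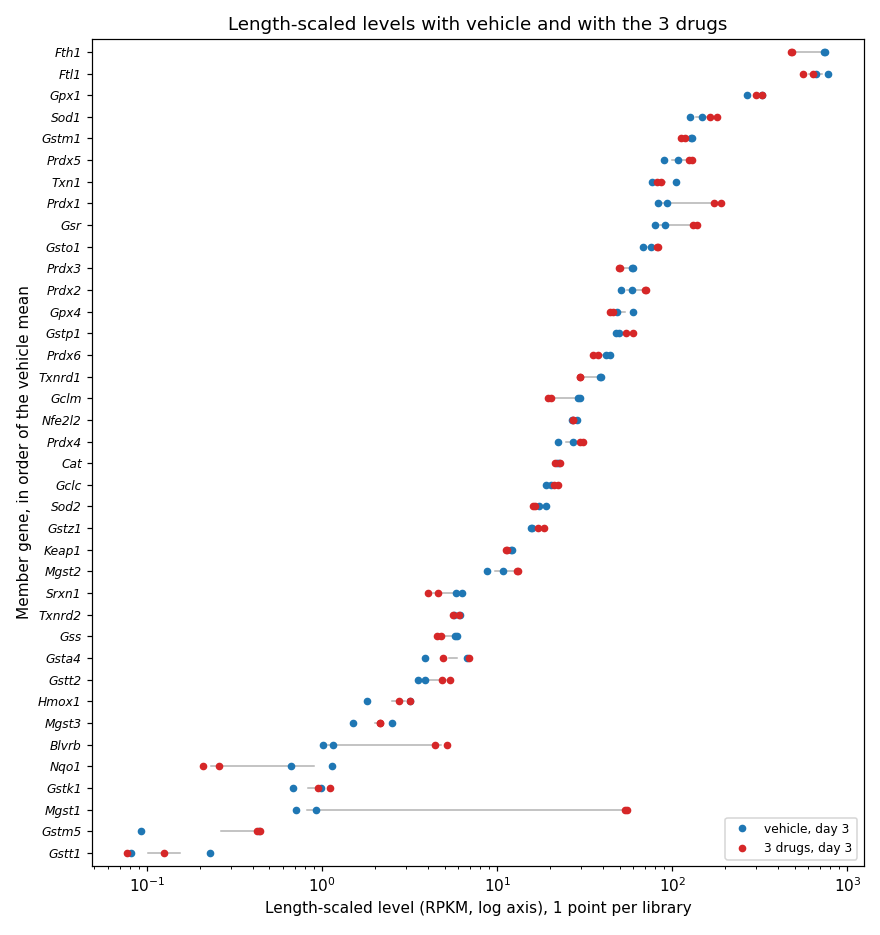
Length-scaled levels (RPKM, log axis) of the antioxidant genes in vehicle libraries (blue) and drug libraries (red), in the order of the vehicle mean; grey lines join the group means and genes with 0 counts are left out. Fth1 and Ftl1 lead with vehicle, and the longest line is that of Mgst1, from 0.816 to 54.5 RPKM.

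A wider list of 126 genes of the same pathways was set beside these, of which 102 were tested. The drugs raised 18 of them against vehicle (17.6% beside 18.1% of all tested genes) and lowered 12 (11.8% beside 13.8%), with a median log2 change of 0.000594. By a rule of size, the largest rises at a level of at least 10 CPM were those of Sesn3, Aifm2, Ugdh and Selenop. Sesn3, a sestrin that restrains growth signals under stress, was at 6.58 and 7.89 CPM at day 0, 6.88 and 8.19 CPM with vehicle and 24.7 and 24.6 CPM with the drugs (log2 change 1.71 ± 0.13, edgeR adjusted p = 7.89e-07). Aifm2, a reductase that protects membranes from lipid peroxidation, was at 6.34 and 5.90 CPM, 5.61 and 5.35 CPM, and 13.1 and 12.7 CPM (1.23 ± 0.14, edgeR adjusted p = 2.9e-05). Ugdh, which makes the sugar donor for glucuronidation, rose by 1.17 ± 0.08, and Selenop, a secreted selenium carrier, by 1.08 ± 0.11 (edgeR adjusted p = 2.53e-07 and 1.02e-05). All 4 had drug libraries above all others.

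The largest falls by the same rule were those of Slc48a1, Slc7a11, Nxn and Pon2. Slc7a11, the cystine importer that supplies glutathione synthesis and a known NRF2 target, was at 212 and 233 CPM at day 0, 252 and 244 CPM with vehicle and 181 and 179 CPM with the drugs (log2 change -0.46 ± 0.07, edgeR adjusted p = 0.000345). Slc48a1, a haem transporter, was at 77.7 and 76.0 CPM, 74.9 and 74.6 CPM, and 51.1 and 51.2 CPM (-0.55 ± 0.07, edgeR adjusted p = 6.13e-05). In both, the drug libraries were the lowest. Nxn, a thioredoxin-like protein, changed by -0.44 ± 0.11 (edgeR adjusted p = 0.00964). Pon2, a membrane lactonase, changed by -0.32 ± 0.11 (edgeR adjusted p = 0.0444). The Nxn call was lost without vehicle replicate 1 or drug replicate 1, and that of Pon2 in 7 of the 15 alternatives, with edgeR adjusted p up to 0.14 and 0.326. The 12 falls became 6 without vehicle replicate 1, 2 without drug replicate 1, 3 without drug replicate 2 and 4 with a replicate block.

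Other called genes of the wider list, named after their values were seen, are given by role. The counts by role stand beside 18.1% of all tested genes called higher and 13.8% called lower. No role was tested as a set. Of the 14 tested further NRF2 targets 3 rose, Ugdh with G6pdx (log2 change 0.52), the NADPH source of the pentose phosphate pathway, and Nqo2 (0.65), and 4 fell, Slc7a11 and Slc48a1 with Tkt (-0.25) and Abcc1 (-0.21). Of 9 NRF2 partners and competitors, 2 rose and 0 fell. These were Bach1 (0.35; 161 and 160 CPM in untreated cells, 134 and 126 CPM with vehicle, 166 and 164 CPM with the drugs) and Bach2, repressors that compete for the same elements. Bach1 had fallen with vehicle against day 0 (log2 change -0.31, edgeR adjusted p = 0.0157, lost in 7 of 15 alternatives), and against day 0 the drugs changed it by 0.04 (edgeR adjusted p = 0.632). Bach2 had 1 and 2 counts with vehicle and 38 and 55 with the drugs, a ratio of 27.3 with an exact binomial 95% interval of 9.05 to 135 that covers counting error only. In the repair of oxidised methionine and further antioxidants, 5 of 10 rose (Msra, Msrb1, Msrb3, Oxr1 and Aifm2), with log2 changes of 0.31 to 1.23, and Pon2 fell. Ltc4s (1.76) was the only call among 8 further peroxidases and transferases. In glutathione metabolism and cysteine supply Ggt7 (1.28) and Adh5 (0.42) rose and Slc3a2 (-0.24), the partner of Slc7a11, and Chac1 (-1.31), which degrades glutathione, fell, of 13 tested. Sesn3 and Txnip (0.33) rose and Nxn and Txnl1 (-0.21) fell among 14 thioredoxin and glutaredoxin genes, Selenop rose and Sepsecs (-0.31) and Selenot (-0.21) fell among 16 selenoprotein genes, and Ncoa4 (0.25), which delivers ferritin for breakdown, and Alas1 (0.36) rose among 18 genes of haem and iron. Of the 30 calls in the wider list 14 held in all 15 alternatives: those of Sesn3, Aifm2, Ugdh, Selenop, Slc48a1, Slc7a11, G6pdx, Nqo2, Bach1, Bach2, Msra, Msrb3, Oxr1 and Adh5.

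Over 3 days with vehicle, 2 of the 102 genes rose and 9 fell (1.96% beside 3.75% of all genes, and 8.82% beside 3.99%). Both rises were iron and haem genes. Alas1, the first enzyme of haem synthesis, was at 50.02 and 53.3 CPM at day 0 and 76.0 and 93.6 CPM with vehicle (log2 change 0.72 ± 0.09, edgeR adjusted p = 0.000686), and Ireb2, an iron sensor, changed by 0.25 ± 0.07 (edgeR adjusted p = 0.0449). By the rule, with its limit of 10 CPM, the largest falls were in Txnip (-0.70), the inhibitor of thioredoxin, Sesn2 (-0.67), Sqstm1 (-0.60), an adaptor that binds KEAP1, and Trim16 (-0.44), each with groups apart and an edgeR adjusted p of at most 0.0145. Below that limit of level, Osgin1 (-1.39, edgeR adjusted p = 0.0454) and Ggct (-0.86, 0.0425), named after their values were seen, fell further, and their calls were lost in 8 and 10 of the 15 alternatives. The calls of Sesn2 and Trim16 were lost without vehicle replicate 2, that of Sesn2 also without untreated replicate 1 and that of Trim16 with library totals, and that of Ireb2 was lost in 8 of the 15 alternatives, with adjusted p up to 0.108, 0.0702 and 0.244 for Sesn2, Trim16 and Ireb2. The 2 rises became 1 without untreated replicate 1, vehicle replicate 1 or either drug replicate, 1 with a replicate block and 4 without vehicle replicate 2. The 9 falls became 24 without untreated replicate 2, 3 without untreated replicate 1, 5 without either drug replicate and 4 with a replicate block. Against day 0 the drugs raised 19 and lowered 26 of the 102 (18.6% beside 22.7%, and 25.5% beside 21.2%), with Sesn3 (1.78), Alas1 (1.08), Aifm2 (1.07) and Ugdh (1.02) the largest rises by the rule and Selenom (-0.80), Sqstm1 (-0.74), Hpgds (-0.72) and Slc48a1 (-0.59) the largest falls. The Selenom call was lost without untreated replicate 1, without either drug replicate and with library totals (edgeR adjusted p up to 0.201). Those 26 falls were 12 without drug replicate 1, 14 without drug replicate 2 and 17 without untreated replicate 1.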

How the data were processed

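Polyadenylated RNA of 6 libraries was analysed, 2 per group. The deposited values are the authors' raw read counts by gene, not normalised, and a deposited Length column in base pairs (another unit), used for RPKM. The submitters' processing notes name STAR 2.7.0f, deepTools 3.0.2 and mm10. Strand setting, annotation release and treatment of multi-mapping reads are not stated in those sources. The 40 genes and the lists beside them were chosen with earlier results of these data known.

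filterByExpr kept 11283 genes (36 of the 40). A single edgeR 4.0.16 model (R 4.3.3) held the 3 groups, with TMM scaling (CPM are on this scale), no replicate block, 3 residual degrees of freedom, a prior count of 0.125 and a common coefficient of variation of 0.0592. The quasi-likelihood F test was adjusted over all tested genes by Benjamini-Hochberg, with calls under 0.05, and the SE was derived from F. Of the 126 further pathway genes, the text names per comparison the 4 called rises and 4 called falls with the largest fold among those whose groups do not overlap and whose higher group averages at least 10 CPM; others were named after their values were seen. Alternatives were other scalings, DESeq2 1.42.0, no filter, only the compared groups, replicate blocks, Rn45s left out (14.6% to 24.6% of counts), a minimum fold of 1.5, a length trend and each library left out. Shared sequence was measured with 50-base stretches of GENCODE transcripts. Some results are not reported here.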

Additional observations from a re-analysis of the deposited data

How the results depend on the processing

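For the drugs against vehicle, 7 of the 14 calls on antioxidant genes held in all 15 alternatives, as did 1 of 3 (Gsr) for vehicle against day 0 and 11 of 15 for the drugs against day 0; these counts leave out the test against a minimum fold, which asks another question. Counts below are in the order rises, then falls, and the cause of each shift was not tested unless the setting itself gives it. Only 1 gene called in either analysis changed sign, Gpx1 in the drugs against day 0, which went from -0.03 to 0.16 (edgeR adjusted p = 0.0296) once the length trend was removed. Depth limited Nqo1, Mgst1 at day 0 and with vehicle, Mgst3, Gstk1, Gstm5 and Gstt1, which had few counts.

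With each library left out in turn, antioxidant rises ranged from 4 to 11 and falls from 4 to 10 for the drugs against vehicle, from 1 to 2 and from 0 to 4 for vehicle against day 0, and from 4 to 10 and from 7 to 11 for the drugs against day 0. For the 126 wider genes the ranges were 12 to 21 and 2 to 17, then 1 to 4 and 3 to 24, then 14 to 19 and 12 to 28. For all genes they were 1251 to 2291 and 582 to 1900, then 155 to 851 and 196 to 1161, then 1667 to 2632 and 1205 to 2625. In vehicle against day 0 the lowest counts over all genes were without vehicle replicate 1 and the highest without untreated replicate 2.

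With DESeq2, antioxidant falls for the drugs against vehicle were 3, wider falls 4, and counts over all genes 1319 and 1010. For vehicle against day 0 DESeq2 gave 1 and 0 antioxidant genes and 246 and 223 of all genes, and for the drugs against day 0 it gave 17 wider falls and 1581 falls over all genes. Scaling by library totals gave 4 antioxidant rises for the drugs against vehicle. It gave, for vehicle against day 0, 0 antioxidant falls, 11 and 3 wider genes and 1741 and 216 of all genes, and for the drugs against day 0, 13 wider falls and 1321 falls over all genes. Without the filter, wider falls for the drugs against vehicle were 19, and vehicle against day 0 gave 3 antioxidant falls, 4 and 16 wider genes and 821 and 843 of all genes. With only the 2 groups compared, vehicle against day 0 gave 1 and 0 antioxidant genes, 1 and 5 wider genes and 269 and 258 of all genes. Against a minimum fold of 1.5 the drugs against vehicle gave 3 (Mgst1, Blvrb and Prdx1) and 0 antioxidant genes, 6 and 0 wider genes and 599 and 115 of all genes. The same test gave 0 and 0, 0 and 0, and 23 and 33 for vehicle against day 0, and 0 antioxidant falls, 7 and 1 wider genes and 647 and 239 of all genes for the drugs against day 0.

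The labels do not say that replicate numbers pair the libraries. Across genes, deviations with the same number correlated at 0.0808 for vehicle and drugs, -0.199 for day 0 and vehicle and -0.0604 for day 0 and drugs. With a replicate block, vehicle against day 0 gave 1 and 0 antioxidant genes, 1 and 4 wider genes and 222 and 261 of all genes, and wider falls for the drugs against vehicle were 4. Sod1, Mgst1, Gclc and Txn1 were the antioxidant calls lost under the block, each in 1 comparison. With the numbers of the untreated libraries crossed, an alternative chosen after seeing the data, the counts were 11 and 11 antioxidant genes and 20 wider falls for the drugs against vehicle, 6 antioxidant falls, 6 and 21 wider genes and 1097 and 1283 of all genes for vehicle against day 0, and 9 antioxidant rises for the drugs against day 0. Removal of the length trend, also chosen after seeing the data, gave 11 antioxidant rises and 19 wider falls for the drugs against vehicle, 6 antioxidant rises, 6 wider rises and 756 falls over all genes for vehicle against day 0, and 11 antioxidant rises for the drugs against day 0. With an A required after the promoter core, 1 window matched in place of 8.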
